A study of Mus musculus with 12 samples.

Results

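The Sestrin genes Sesn1, Sesn2 and Sesn3 and the GATOR genes Depdc5, Nprl2, Nprl3, Mios, Wdr24, Wdr59 and Seh1l form the cytosolic amino acid sensing branch upstream of mTORC1. They were selected by gene symbol, and all 10 were found among the 24062 symbols of the count table. All 10 passed the filter on low counts, which left 12154 genes for testing. RNA-Seq had been performed on mouse embryonic fibroblasts (MEFs) expressing shRenilla, a control shRNA against a luciferase absent from mouse cells, or shBruce, which targets Birc6, the gene of the ubiquitin ligase BRUCE. Each line was kept in full medium (FM) or starved for 2 h in medium without serum and amino acids (Starv), which gave 4 conditions with 3 replicate libraries each. A single line stood for each shRNA, so that other differences between the lines and the knockdown cannot be told apart, and neither can the loss of serum and the loss of amino acids. The labels do not say that the replicates were separate cultures, and p-values therefore measure the spread between these libraries, which may be technical.

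mTORC1 is recruited to the lysosome by the Rag GTPases when amino acids are plentiful. GATOR1, made of DEPDC5, NPRL2 and NPRL3, switches the Rag GTPases off, and GATOR2, which contains MIOS, WDR24, WDR59 and SEH1L, opposes GATOR1. Sestrin proteins bind GATOR2 and restrain it when leucine is scarce, and SESN2 is the leucine sensor described in most detail. The Sestrin genes are also stress genes, with ATF4, FOXO factors and p53 among their textbook regulators.

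Total counts per library ranged from 7717265 in shBruce Starv replicate 1 to 18510540, and the next lowest total was 13200393. Birc6 was lower in every shBruce library than in every shRenilla library, with normalized counts from 703 to 1390 against 2787 to 5061. Its log2 fold change in shBruce MEFs was -1.75 in FM (edgeR adjusted p = 0.0627) and -1.98 in Starv (edgeR adjusted p = 0.0186). Of 8 fibroblast markers, 7 passed the filter, and their summed level ranged from 117984 to 172365 normalized counts per library, whereas Thy1 reached at most 2.4. Of 4 epithelial markers none passed, with a sum of at most 16.1, and the neuronal marker Tubb3 was present at 161 to 400 normalized counts while Rbfox3 and Snap25 stayed at or below 6.1. Summed levels of the neuronal markers were 163 to 218 in shRenilla FM and 285 to 333 in shRenilla Starv, and 258 to 300 in shBruce FM and 384 to 406 in shBruce Starv. Their part in the starvation results was not tested.

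Sesn2 was the member with the strongest response, and its upstream sequence is given first, because the results turn on it. The gene lies on the minus strand of chr4:132492032-132510501 (GENCODE M21, mm10/GRCm38). The 205 bases directly before the annotated gene, from the RefSeq promoter table on GRCm38.p6 (chr4:132510502-132510706, minus strand, written 5′ to 3′), read as follows, with both matches to the CCAAT box in capitals.
Sesn2 upstream sequence: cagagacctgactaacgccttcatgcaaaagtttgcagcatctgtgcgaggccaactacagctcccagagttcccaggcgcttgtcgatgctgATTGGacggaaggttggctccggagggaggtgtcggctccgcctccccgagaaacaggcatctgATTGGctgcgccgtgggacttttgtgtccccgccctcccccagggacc
Both matches lie in reverse orientation, and their first bases are at -157 and -93 from the RefSeq start. That start lies inside the annotated GENCODE gene, downstream of the last base shown, so the offsets are not counted from the end of the printed sequence. In windows of 300 bases, from 250 before to 50 after each start, and on both strands, CCAAT was found in 37.4% of 32851 mouse promoters. The letters CACGTG of the E-box (7.15% of promoters), GTAAACA of the FOXO site (3.65%) and TGATGNAAN of the C/EBP-ATF composite site (3.95%) were not in the Sesn2 window. Without Wdr24 and Seh1l, 9 windows of 8 members were examined. CCAAT was found in 5 of these, with up to 4 matches in the window of Sesn3. GTAAACA was found in 1, a window of Sesn1, whereas CACGTG and TGATGNAAN were found in 0. These matches describe letters only.

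Starvation raised Sesn2 in both lines, whereas the other Sestrins did not pass the test. In shRenilla MEFs, Sesn2 had 145, 190 and 177 normalized counts in FM (mean 171 ± 22.9, SD, n = 3) and 1310, 1323 and 1273 in Starv (mean 1302 ± 26.1, SD, n = 3). The starved libraries were close to each other and all far above the FM libraries. The increase was 7.63-fold (log2 fold change 2.93, SE 0.37, 95% CI 2.13 to 3.74, edgeR adjusted p = 1.9e-04), the 18th highest log2 fold change of the 12154 genes tested. The exact permutation test gave p = 0.1, the smallest value that 3 libraries against 3 allow in a two-sided test.

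In shBruce MEFs, Sesn2 had 166, 222 and 172 normalized counts in FM and 434, 747 and 1717 in Starv replicates 1, 2 and 3. Every starved library was above every FM library, but the starved libraries differed widely among themselves, and replicate 3 was above all shRenilla Starv libraries while replicates 1 and 2 were below them. The increase was 5.22-fold (log2 fold change 2.38, SE 0.37, 95% CI 1.59 to 3.18, edgeR adjusted p = 6.6e-04), the 72nd highest of 12154. With any one of the 12 libraries left out, the log2 fold change ranged from 1.67 to 2.71, and Sesn2 passed the test each time. The spread of Sesn2 over the shBruce Starv libraries was 3.95-fold, or 1.98 on the log2 scale, which was the 334th widest of 12154 genes and compared with a median of 0.62 over all genes. Over the shRenilla Starv libraries it was 0.06.

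The level of Sesn2 thus varied with the library in starved shBruce MEFs, and the comparison between the lines followed it. Between the starved lines, the log2 fold change in shBruce MEFs was -0.42 (SE 0.34, 95% CI -1.16 to 0.32, edgeR adjusted p = 0.373). Without shBruce Starv replicate 3 it was -1.13 (edgeR adjusted p = 0.0011), and without replicate 1, which had the lowest total count, it was -0.09 (edgeR adjusted p = 0.831). The part of sequencing depth in this spread was not tested. The interaction of line and medium for Sesn2 was -0.55 (SE 0.50, 95% CI -1.63 to 0.54, edgeR adjusted p = 0.810). It was -1.26 without shBruce Starv replicate 3 (edgeR adjusted p = 0.0890) and -0.23 without replicate 1 (edgeR adjusted p = 0.994), so that a difference in response between the lines was not detectable at this spread.

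**Figure D1:**
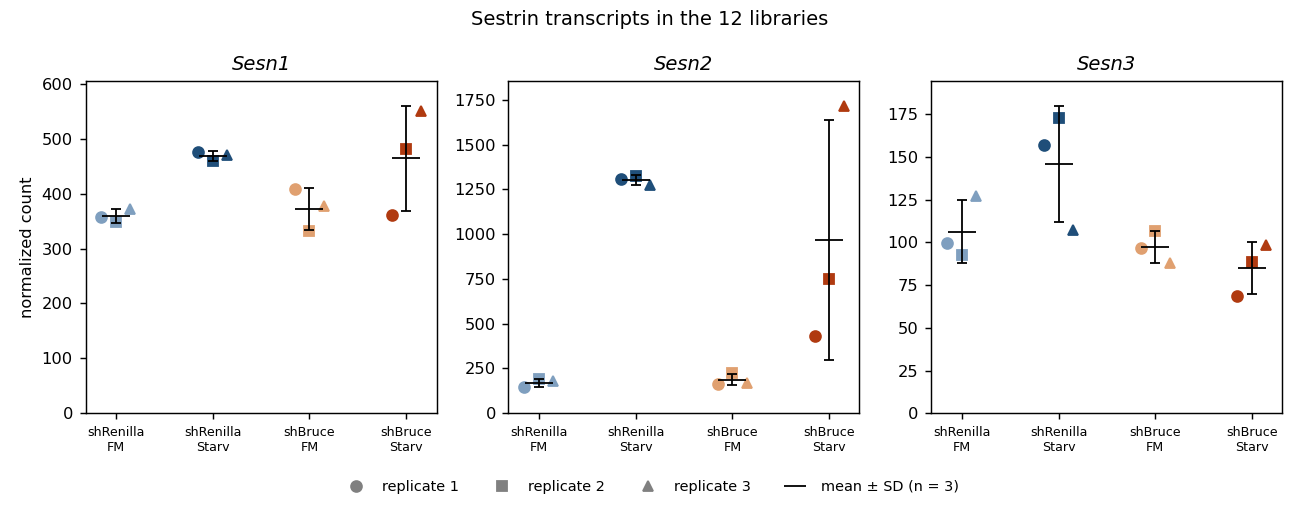
Normalized counts (y axis, linear scale from 0) of Sesn1, Sesn2 and Sesn3 in the 4 conditions (x axis), with a symbol for each of the 3 replicate libraries and black bars for the mean ± SD. The Sesn2 points of shRenilla Starv lie between 1273 and 1323, those of shBruce Starv are spread from 434 to 1717, and all 6 are above the FM points.

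Sesn1, whose product also binds leucine and GATOR2, is located on the plus strand of chr10:41809935-41908424. Its normalized counts in shRenilla MEFs were 357, 348 and 373 in FM and 476, 459 and 470 in Starv. All starved libraries were above all FM libraries, but the log2 fold change of 0.38 (SE 0.15, 95% CI 0.07 to 0.70) did not pass (edgeR adjusted p = 0.0922). In shBruce MEFs, the values were 408, 332 and 377 in FM and 361, 481 and 551 in Starv, and the groups overlapped. The log2 fold change there was 0.33 (SE 0.15, edgeR adjusted p = 0.130). Between the starved lines, Sesn1 showed a log2 fold change of -0.0046 (95% CI -0.32 to 0.31, edgeR adjusted p = 0.985), and in FM of 0.05 (95% CI -0.27 to 0.37).

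Sesn3, a Sestrin gene known as a FOXO target, lies on the plus strand of chr9:14275067-14333101 and had the fewest reads of the 10 members, with raw counts from 34 to 200. It was the only member that passed the test between the lines, and it did so in Starv. Its normalized counts were 157, 173 and 108 in shRenilla Starv and 68.6, 88.6 and 98.5 in shBruce Starv. All starved shBruce libraries were below all starved shRenilla libraries, although the highest shBruce value and the lowest shRenilla value were close. The level was 1.69-fold lower in shBruce MEFs (log2 fold change -0.76, SE 0.21, 95% CI -1.21 to -0.30, edgeR adjusted p = 0.0286).

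In FM, Sesn3 had 99.6, 92.4 and 127 normalized counts in shRenilla MEFs and 96.6, 107 and 88.3 in shBruce MEFs, and the lines overlapped (log2 fold change -0.13, 95% CI -0.58 to 0.32). Starvation gave log2 fold changes of 0.46 in shRenilla MEFs (SE 0.20, edgeR adjusted p = 0.145) and of -0.17 in shBruce MEFs (SE 0.22, edgeR adjusted p = 0.607), with overlapping libraries in each line. The interaction for Sesn3 was -0.63 (SE 0.30, 95% CI -1.27 to 0.02, unadjusted p = 0.0557 in edgeR, adjusted p = 0.806). The Sesn3 difference between the starved lines passed in 15 of 22 alternative analyses. It was -0.20 (edgeR adjusted p = 0.476) once the dependence of counts on GC content and transcript length had been fitted and removed in each library. Without shBruce Starv replicate 1 or 2 and without shRenilla Starv replicate 1 or 2, the log2 fold changes of Sesn3 were -0.66, -0.78, -0.70 and -0.62, close to that with all libraries, with edgeR adjusted p-values of 0.0766, 0.0666, 0.116 and 0.131.

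The Sestrin genes also differed in how much each contributed to their sum. Levels were compared between genes as CPM per kilobase of the longest annotated coding transcript. On this scale, Sesn1 was the highest Sestrin in FM and Sesn2 in Starv. In shRenilla FM, Sesn2 made up 28.6%, 35.0% and 31.3% of the summed Sestrin level in the replicates, and in shRenilla Starv 72.6%, 73.2% and 73.0%. In shBruce MEFs, the share was 28.8%, 39.3% and 31.3% in FM and 55.0%, 61.2% and 76.1% in Starv. Every starved library was thus above every FM library in either line. Sesn3 made up 1.66% to 8.56% in all 12 libraries. All of these shares, and the order of the members given next, depend on the transcript model, because the longest coding transcript was used. Annotated coding transcripts range from 1700 to 9125 bases for Sesn3 and from 2600 to 3809 for Sesn1, against 3475 for Sesn2. Levels with shorter transcripts were not computed, and the order of the Sestrins could differ with them.

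Across the 10 members, the per-length order in shRenilla FM was led by Seh1l, which is also a nuclear pore subunit, at 63.1 ± 6.35 (SD, n = 3), followed by Nprl2 at 13.5 ± 0.72. Mios (8.12 ± 0.71), Wdr24 (7.84 ± 0.35) and Wdr59 (7.51 ± 0.66) came next and did not differ beyond their spread. Sesn1 followed at 6.46 ± 0.23 and Nprl3 at 5.99 ± 0.42, with overlapping replicates, and Depdc5 at 4.58 ± 0.33. With the longest transcripts, Sesn2 was 9th at 3.37 ± 0.45 and Sesn3 last at 0.80 ± 0.14. In shRenilla Starv, Sesn2 was second at 25.7 ± 0.51 behind Seh1l at 57.0 ± 2.74, and Sesn3 remained last at 1.10 ± 0.26. In shBruce Starv, Sesn2 was again second on average, at 19.0 ± 13.2, but its replicates ranged from 8.55 to 33.8 and overlapped those of Nprl2 (11.1 to 13.8).

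**Figure D2:**
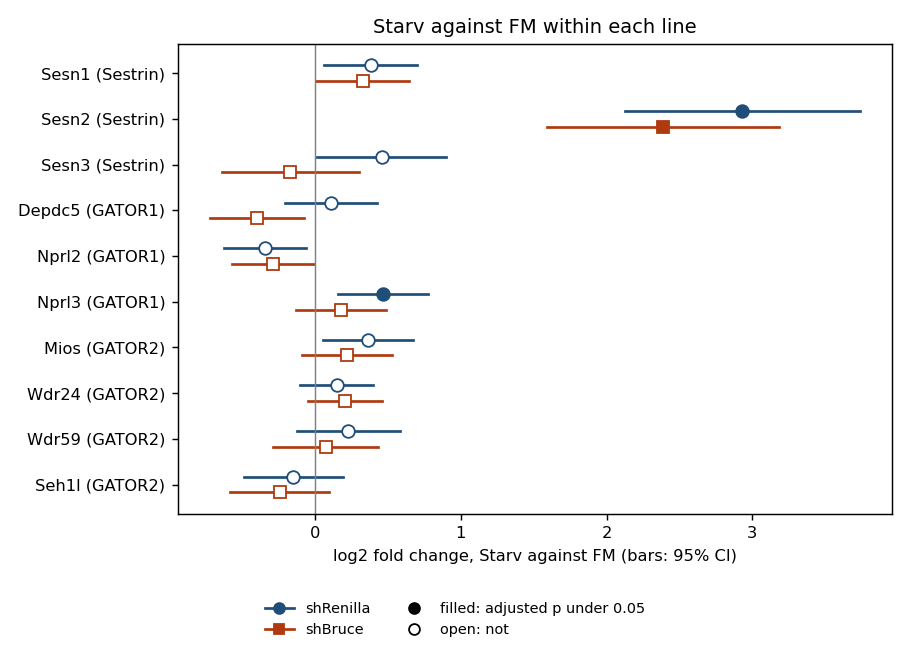
Log2 fold changes of Starv against FM (x axis) for the 10 members (y axis) in shRenilla MEFs (circles) and shBruce MEFs (squares), with 95% confidence intervals. Filled symbols passed the edgeR test, and these are Sesn2 in both lines, at 2.93 and 2.38, and Nprl3 in shRenilla MEFs, at 0.47.

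In starved shRenilla MEFs, 2 of the 10 members passed, Sesn2 and Nprl3, both higher, against 17% of all genes tested (9.69% higher and 7.27% lower). The median log2 fold change of the members was 0.30, compared with -0.01 for all genes. Replicates of Starv and FM did not overlap for 5 members that were higher (Sesn1, Sesn2, Nprl3, Mios and Wdr24) and for 1 that was lower (Nprl2), against 25.9% and 26.5% of all genes. In starved shBruce MEFs, 1 of 10 passed, Sesn2, against 23% of all genes (12.4% higher and 10.6% lower), and the medians were 0.13 and 0.02. There, Sesn2 and Wdr24 were higher without overlap and Nprl2 was lower, against 16.2% and 14.8% of all genes. With only 10 members, these counts cannot be told apart from the shares of all genes, and no test compared them.

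Among the GATOR1 genes, Nprl3, on the minus strand of chr11:32225628-32267707, rose in shRenilla MEFs. Its normalized counts were 232, 267 and 253 in FM and 319, 350 and 369 in Starv, without overlap. This was a 1.38-fold increase (log2 fold change 0.47, SE 0.14, 95% CI 0.16 to 0.77, edgeR adjusted p = 0.0381). The call was near the threshold and was lost in 9 of 22 alternative analyses, among them those without any one of the 6 shRenilla libraries, with log2 fold changes from 0.41 to 0.52 over all libraries left out. In shBruce MEFs, Nprl3 had 280, 266 and 289 in FM and 285, 277 and 379 in Starv, where only replicate 3 stood above the FM libraries (log2 fold change 0.18, SE 0.14, edgeR adjusted p = 0.394). Nprl3 shares 1340 of its 7572 exonic bases with Mpg, a DNA repair gene on the opposite strand, and without a stated strand setting their reads cannot be told apart. Mpg itself showed a log2 fold change of -0.05 in starved shRenilla MEFs (edgeR adjusted p = 0.830). Between the lines, Mpg was higher in shBruce MEFs, by 0.40 in FM (edgeR adjusted p = 0.303) and by 0.44 in Starv (edgeR adjusted p = 0.0453). The Mpg call in Starv passed in 9 of 22 alternatives. The part of Mpg reads in the Nprl3 values was not tested.

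Nprl2, which encodes the catalytic GATOR1 subunit (chr9:107542226-107545706, plus strand), was the member with the lowest fold change in starved shRenilla MEFs. It had 267, 288 and 297 normalized counts in shRenilla FM and 214, 216 and 243 in shRenilla Starv, and 313, 320 and 294 in shBruce FM and 234, 291 and 233 in shBruce Starv. The starved libraries were below the FM libraries of the same line in each case. The log2 fold changes of -0.34 in shRenilla MEFs (SE 0.13, 95% CI -0.62 to -0.06) and -0.29 in shBruce MEFs (SE 0.13) did not pass (edgeR adjusted p = 0.0917 and 0.134). Nprl2 differed by 0.18 between the starved lines on the log2 scale (edgeR adjusted p = 0.331).

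Depdc5, the GATOR1 subunit gene on the plus strand of chr5:32863701-32994236, had 549, 510 and 589 normalized counts in shRenilla FM, and 649, 601 and 530 in shRenilla Starv. The values in shBruce MEFs were 512, 561 and 672 in FM and 400, 405 and 517 in Starv. Starved shBruce libraries were below all starved shRenilla libraries, but replicate 3 only narrowly. The log2 fold change between the starved lines was -0.42 (SE 0.15, 95% CI -0.74 to -0.11, edgeR adjusted p = 0.0523). Without shBruce Starv replicate 3 it was -0.56 (edgeR adjusted p = 0.0073), and with the length and GC trends removed it was -0.03. Starvation itself gave 0.11 in shRenilla MEFs (edgeR adjusted p = 0.638) and -0.40 in shBruce MEFs (SE 0.15, edgeR adjusted p = 0.0706), and the interaction for Depdc5 was -0.51 (SE 0.21, 95% CI -0.96 to -0.06, unadjusted p = 0.0292 in edgeR, adjusted p = 0.806).

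**Figure D3:**
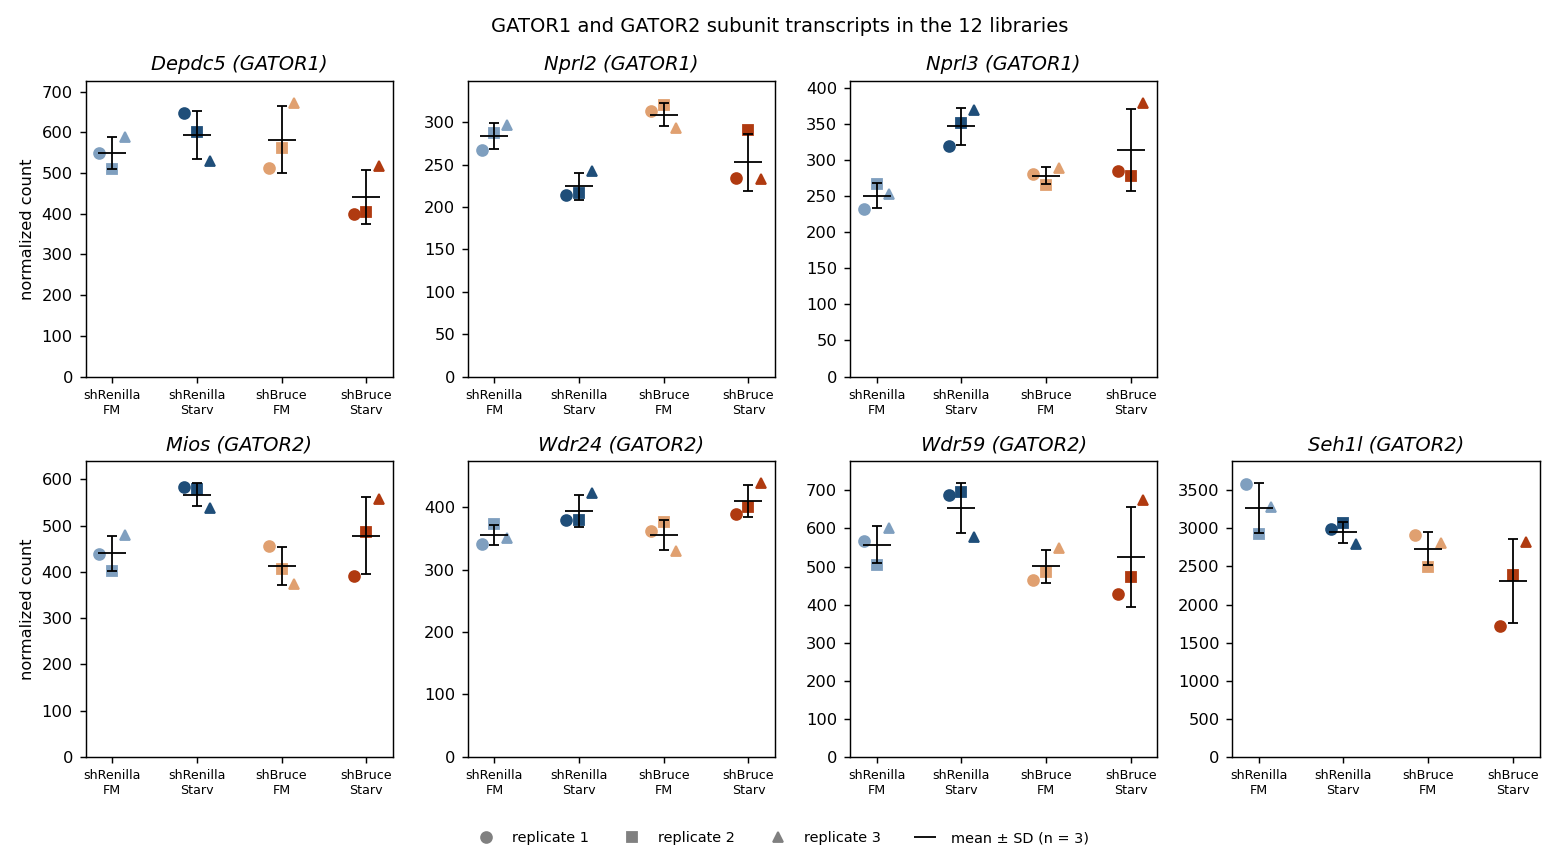
Normalized counts (y axes, linear from 0) of the 3 GATOR1 genes (upper row) and the 4 GATOR2 genes (lower row) in the 4 conditions (x axes), with a symbol for each replicate library and black bars for the mean ± SD. Starved shRenilla libraries lie above the FM libraries for Nprl3 and Mios and below them for Nprl2, and in shBruce Starv replicate 3 (triangle) is the highest point for all of these genes but Nprl2.

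None of the 4 GATOR2 genes passed the test in any comparison. Mios (chr6:8209222-8236274, plus strand) had 438, 403 and 479 normalized counts in shRenilla FM and 583, 580 and 538 in shRenilla Starv, without overlap (log2 fold change 0.36, SE 0.14, edgeR adjusted p = 0.0954). In shBruce MEFs, Mios had 457, 406 and 374 in FM and 392, 485 and 557 in Starv, which overlapped (log2 fold change 0.22, edgeR adjusted p = 0.287). Wdr24 (chr17:25823627-25828730, plus strand), whose product carries a RING domain, had 341, 373 and 351 in shRenilla FM and 379, 379 and 423 in shRenilla Starv. Its values in shBruce MEFs were 361, 376 and 329 in FM and 390, 400 and 438 in Starv. The starved libraries were above the FM libraries in each line, by log2 fold changes of 0.15 (edgeR adjusted p = 0.408) and 0.21 (edgeR adjusted p = 0.219) for Wdr24.

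Wdr59 (chr8:111448797-111522092, minus strand) ranged from 505 to 600 normalized counts in shRenilla FM, 579 to 696 in shRenilla Starv, 465 to 549 in shBruce FM and 428 to 674 in shBruce Starv, and Starv and FM overlapped in each line. Its log2 fold changes on starvation were 0.23 (edgeR adjusted p = 0.366) and 0.07 (edgeR adjusted p = 0.778). Seh1l ranged from 2929 to 3586 in shRenilla FM, 2791 to 3067 in shRenilla Starv, 2490 to 2912 in shBruce FM and 1720 to 2820 in shBruce Starv. Starvation gave log2 fold changes of -0.15 (edgeR adjusted p = 0.560) and -0.24 (edgeR adjusted p = 0.289) for Seh1l. Wdr59 and Seh1l overlap genes on another strand or of another type that had 4 and 30 counts in total, too few to alter these values.

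In FM, none of the members passed the test between the lines, nor did any of the genes tested, Birc6 included (0% called, with 1750 of 12154 at an unadjusted p under 0.05). DESeq2 called 71 genes, and a fit of the FM libraries alone called 597 of 11680 (5.11%), in neither case with a member among them. Log2 fold changes of the members in shBruce FM ranged from -0.26 for Seh1l to 0.15 for Nprl3, with a median of 0.03 compared with 0.01 for all genes, and Sesn2 showed 0.13 (95% CI -0.67 to 0.92). Seh1l was lower without overlap, against 17% of all genes, and no member was higher without overlap, against 16.4%.

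In Starv, 1 of 10 members passed between the lines, Sesn3, against 23.9% of all genes (12.8% higher and 11.2% lower in shBruce MEFs). The members had a median log2 fold change of -0.28, compared with 0.00 for all genes, and 8 of 10 were below 0. Besides Sesn3 and Depdc5, these were Seh1l at -0.35 (edgeR adjusted p = 0.113), Wdr59 at -0.31 (edgeR adjusted p = 0.171), Mios at -0.24 (edgeR adjusted p = 0.219) and Nprl3 at -0.14 (edgeR adjusted p = 0.486), together with Sesn2 and Sesn1. Wdr24 was at 0.06 (edgeR adjusted p = 0.725). With the length and GC trends removed, the direction turned for Sesn1 (0.16), Nprl2 (-0.18), Mios (0.046) and Wdr24 (-0.042), none of which passed. Sesn3 and Depdc5 were lower without overlap, against 18.5% of all genes, and none was higher, against 16.4%.

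The number of members called between the starved lines changed with the libraries used and with the removal of length and GC trends. The 10 members had their lowest shBruce Starv value in replicate 1 and their highest in replicate 3 in 8 cases, an order that 26.2% of all genes tested showed. Without shBruce Starv replicate 3, 6 members were lower in starved shBruce MEFs (Sesn2, Sesn3, Depdc5, Mios, Wdr59 and Seh1l). Of all genes, 5735 (46.7%) were then called in both directions together, and the share of lower genes alone was not computed. Without shBruce Starv replicate 1 or 2, 0 members passed, when 573 of 12254 (4.68%) and 15 of 12284 (0.12%) genes were called in all. Without shRenilla Starv replicate 1 or 2, 0 members and 0 genes in all passed by edgeR, with 3495 and 3409 genes at an unadjusted p under 0.05. With the length and GC trends of each library removed, 0 members passed, against 5.58% of all genes. Length and GC were removed together, and the part of each was not tested.

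**Figure D4:**
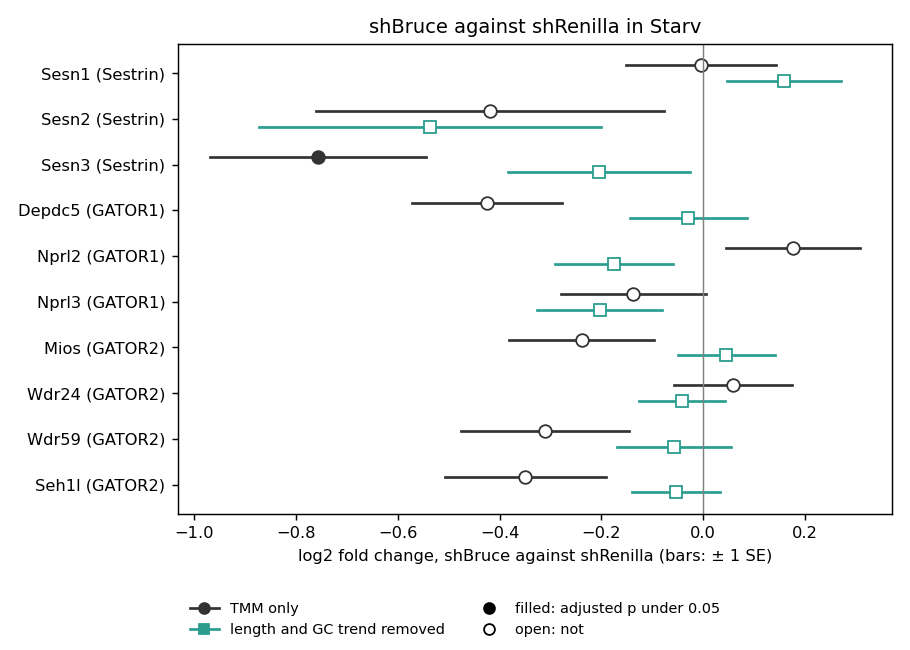
Log2 fold changes of shBruce against shRenilla in Starv (x axis) for the 10 members (y axis) from the TMM-normalized fit (circles) and after removal of the dependence on GC content and transcript length in each library (squares), with bars of ± 1 SE and filled symbols for an edgeR adjusted p under 0.05. Sesn3 moves from -0.76 to -0.20 and Depdc5 from -0.42 to -0.03.

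No member showed an interaction of line and medium that passed, and neither did any other gene (0% called by edgeR and by DESeq2, with 474 of 12154 at an unadjusted p under 0.05 in edgeR). The median interaction of the members was -0.15 and that of all genes -0.01. A different response of the 10 genes in the lines was therefore not detectable at this spread.

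Genes acting next to GATOR were also examined. Of 11 genes for KICSTOR and other GATOR partners, 9 were in the table, and 2 rose and 0 fell in starved shRenilla MEFs (median log2 fold change 0.29). Of all genes tested, 9.69% rose and 7.27% fell there. Slc38a9, which encodes the lysosomal arginine sensor, had 156, 146 and 153 normalized counts in shRenilla FM and 311, 291 and 257 in shRenilla Starv, an increase with a log2 fold change of 0.92 (SE 0.13, edgeR adjusted p = 4.8e-04). In shBruce MEFs, Slc38a9 rose by 0.87 on the log2 scale (SE 0.14, edgeR adjusted p = 7.2e-04), from 150, 120 and 140 to 250, 258 and 240. The starved and FM libraries did not overlap in either line, and unlike those of Sesn2, the starved shBruce libraries were close together. Rnf152, a ubiquitin ligase gene for RagA, rose by 1.96 on the log2 scale in shRenilla MEFs (SE 0.57, edgeR adjusted p = 0.0324), but with only 3 to 23 raw counts in the shRenilla libraries, and it passed in 14 of 20 alternatives (adjusted p up to 0.159).

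In starved shBruce MEFs, 3 of the 9 partner genes rose and 0 fell (median 0.20), against 12.4% and 10.6% of all genes tested. These were Slc38a9, the KICSTOR gene Itfg2 (log2 fold change 0.75, SE 0.14, edgeR adjusted p = 0.0024) and Gatsl2, also named Castor2, a relative of the arginine sensor CASTOR1 (0.75, SE 0.24, edgeR adjusted p = 0.0404). The Gatsl2 call passed in 13 of 22 alternatives, with adjusted p-values up to 0.139 and log2 fold changes from 0.47 to 0.91 with a library left out. Kptn, a KICSTOR gene, gave log2 fold changes on starvation of -0.14 and 0.09 in shRenilla and shBruce MEFs, neither past the test. Likewise, Sec13, which encodes a further GATOR2 subunit, was at -0.30 and -0.28, Gatsl3 (Castor1) at 0.04 and 0.05, and Klhl22, whose product directs DEPDC5 for degradation, at 0.29 and 0.20. Between the lines, none of the 9 genes passed in FM or in Starv.

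Downstream of GATOR, 3 of 12 Rag GTPase, Ragulator and folliculin genes rose in starved shRenilla MEFs and 0 fell (median 0.07). These were Fnip1 (log2 fold change 1.52, edgeR adjusted p = 2.7e-04), Fnip2 (1.22, edgeR adjusted p = 0.0018) and Flcn (0.91, edgeR adjusted p = 9.8e-04), which encode the folliculin complex that acts on RagC and RagD. In starved shBruce MEFs, 4 of 12 rose and 0 fell, and between the lines 0 differed in FM while in Starv 4 were higher and 1 lower in shBruce MEFs. Of all genes tested, 9.69% rose in starved shRenilla MEFs and 12.4% in starved shBruce MEFs. Between the starved lines, 12.8% were higher and 11.2% lower in shBruce MEFs. Calls between the starved lines depended on the libraries used, with 0 genes in all passing without shRenilla Starv replicate 1 or 2.

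Gene lists of the textbook regulators of the Sestrins, from which the members had been left out, moved to different degrees. Among all genes tested, 9.69% rose and 7.27% fell in starved shRenilla MEFs, and 12.4% rose and 10.6% fell in starved shBruce MEFs. Of 40 ATF4 target genes tested, 32 rose and 0 fell in starved shRenilla MEFs (median log2 fold change 1.09) and 29 rose and 0 fell in shBruce MEFs (median 0.96). The 3 highest in shRenilla MEFs were Fgf21 (5.59), Trib3 (4.16) and Chac1 (3.62), which encode a stress hormone, a pseudokinase and a glutathione-degrading enzyme. Of 23 FOXO target genes, 14 rose and 0 fell in shRenilla MEFs (median 0.97), led by Txnip (3.66), Fbxo32 (3.09) and Klf15 (3.02), and 13 rose and 1 fell in shBruce MEFs (median 0.92). Of 31 p53 target genes, 7 rose, with Gadd45a (2.60), Eda2r (1.80) and Trp53inp1 (1.40) at the top, and 8 fell, with Plk2 (-1.20), Btg2 (-0.94) and Tnfrsf10b (-0.88) lowest (median -0.06), in shRenilla MEFs. In shBruce MEFs, 7 p53 target genes rose and 10 fell (median -0.22). The lists shared genes, among them Gadd45a on the FOXO and p53 lists and Eif4ebp1 on the ATF4 and FOXO lists.

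Single genes of these lists also varied over the shBruce Starv libraries. Their log2 range between the lowest and highest of the 3 libraries had a median of 0.50 for the 40 ATF4 target genes, 0.64 for the 23 FOXO target genes and 0.57 for the 31 p53 target genes, compared with 0.62 for all genes tested and 1.98 for Sesn2. A range wider than that of Sesn2 was found for 0 ATF4, 0 FOXO and 1 p53 target gene, Pmaip1 (2.13), named after its value was seen.

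The genes closest in pattern to each Sestrin were ranked by the root mean square difference of centred log2 values over the 12 libraries, among 10363 genes whose normalized counts averaged at least 50. For Sesn2, these were Hbp1 (0.37), Ccng2 (0.40), which was also on the FOXO list, and Ciart (0.43), compared with a median of 1.40 over the genes ranked. In shBruce Starv replicates 1, 2 and 3, Hbp1 had 1524, 2170 and 2640 normalized counts, Ccng2 709, 1246 and 1358 and Ciart 333, 451 and 545. These libraries were among those by which the genes were chosen, so that the shared order is no independent result. Their spreads, of 1.73-fold, 1.92-fold and 1.64-fold, were narrower than the 3.95-fold of Sesn2. For Sesn1, the closest genes were Asf1a (0.07), Zfp212 (0.08) and Tars (0.09), with a median of 0.37, and for Sesn3 they were Scarb2 (0.13), Ccdc93 (0.14) and Nsd1 (0.15), with a median of 0.44.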

How the data were processed

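Per the labels and the study's methods, the authors isolated total RNA from MEFs, made libraries by poly(A) enrichment and sequenced them single-end. They discarded reads from rRNA, aligned the remainder to mm10 (STAR 2.4.0d) and counted per gene with HTSeq 0.5.4p3. The deposited table holds raw counts for 12 libraries, without normalization, and 0 columns were left unused. Annotation, strand setting and overlap mode are not given in the sources used here. Date-converted symbols (27, with 0.296% of counts) were kept as they are.

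Counts were fitted with edgeR 4.0.16 (R 4.3.3): TMM normalization, filterByExpr, a mean per condition over all 12 libraries, the two-sided quasi-likelihood test and Benjamini-Hochberg adjustment over 12154 genes at 0.05. A fit across all conditions shares the spread of the less even shBruce Starv libraries with the others. To obtain normalized counts, counts were scaled by effective library size (total times TMM factor, over its geometric mean). The precision of single values is given by SD or SE, and a library with fewer counts is less precise. Single differences were also tested with an exact permutation test (scipy 1.17.1), whose smallest p is 0.1. Deviations of same-numbered libraries correlated between 0.11 and 0.27 in the 3 pairs of the lines in FM (other FM pairs -0.27 to 0.08). Between shRenilla FM and shRenilla Starv, same-numbered pairs ranged from -0.69 to 0.19 and other pairs from -0.53 to 0.73. With 3 libraries per condition, these correlations cannot show whether the numbers pair the libraries, and the labels do not say it. The replicate block changed no call of a member. GENCODE M21 gave positions, lengths and GC content (22724 symbols matched as written, 934 by an older symbol), and RefSeq gave promoters (GRCm38.p6).

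The members, gene lists and tests were chosen with earlier results of these data known, and the lists were written from general knowledge. Named genes were the 10 members, Birc6, the KICSTOR and other partner genes (of which some values are not reported here), up to 3 rising and 3 falling genes per list with the largest changes in starved shRenilla MEFs, and the 3 genes closest to each Sestrin, and Mpg was added after the overlap was seen. Levels and likeness used a pseudocount of 1. The alternatives were 10 other settings and each of the 12 libraries left out. Among the settings were DESeq2 1.42.0 and limma-voom (limma 3.58.1). The study also used limma with voom, in a version that it does not state. The edgeR, limma-voom and DESeq2 fits in their default settings were tested on simulated counts, with changes in the shRenilla Starv libraries only. That test did not cover the removal of trends, the replicate block, the comparisons between the lines or the interaction. Figures were made with matplotlib 3.10.9.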

Additional observations from a re-analysis of the deposited data

How the results depend on the processing

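Sesn2 rose on starvation in both lines under all 22 alternatives. The number of members called in starved shRenilla MEFs (2) was 5 when only the groups compared were fitted (41.9% of all genes called), 4 with upper-quartile normalization (18.3%), 1 without a filter on low counts (10.0%) and 1 to 4 with a library left out. In starved shBruce MEFs (1), it was 2 with DESeq2 (26.8% of all genes), 5 with length and GC trends removed (33.0%), 4 with these removed and a replicate block (30.5%), and 1 to 3 with a library left out. Between the starved lines (1), it was 2 with DESeq2 (31.0%), 2 with at least 10 counts in every library (27.4%), 0 with only the groups compared, 0 with the trends removed, with or without the block, and 0 to 6 with a library left out. The counts in FM and for the interaction stayed at 0 under every alternative run for them, and the interaction could not be fitted with only the groups compared.

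Directions that turned, among the values given for single members, were all of values that had not passed. For Sesn1 between the starved lines, the log2 fold change was 0.0093 with DESeq2, 0.0038 with its size factors in edgeR, 0.0016 with at least 10 counts, 0.023 with upper-quartile normalization, 0.16 with the trends removed (0.16 with the block) and -0.15 to 0.13 with a library left out. With the trends removed, and the same with the block unless given, it was -0.022 (-0.021 with the block) for Depdc5 in starved shRenilla MEFs and, between the starved lines, -0.18 for Nprl2, 0.046 for Mios (0.045 with the block) and -0.042 for Wdr24, and in FM 0.22 for Sesn3 (0.21 with the block). With a library left out, it ranged in FM from -0.019 to 0.13 for Sesn1, -0.017 to 0.21 for Sesn2 and -0.22 to 0.017 for Sesn3, and in starved shBruce MEFs from -0.15 to 0.18 for Wdr59.

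Over all conditions, the correlations did not show that the replicate numbers pair the libraries. Same-numbered libraries of different conditions correlated between -0.69 and 0.53 in their deviations, over 0.1 in 7 of 18 pairs, and 4 of 12 libraries correlated best with their own number. With the replicate number as a block, the members called were 2, 1, 0, 1 and 0 for starvation in shRenilla, starvation in shBruce, the lines in FM, the lines in Starv and the interaction, while the genes called in all went from 2061, 2790, 0, 2907 and 0 to 1770, 2450, 0, 1932 and 0. Over all genes, the starved lines differed at 678 genes with the trends removed and at 1 with these and the block, and at 0 without shRenilla Starv replicate 1 or 2 or with only the groups compared, where starvation gave 5013 genes in shRenilla and 956 in shBruce MEFs.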
